A study of Homo sapiens with 2 samples.

Results

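MYC and 7 genes around it in band 8q24 of human chromosome 8 were described in HL60-EIF2S3 cells: MYC, PVT1, TRIB1, NSMCE2, CASC11, FAM84B, PCAT1 and POU5F1B. They were taken by symbol, and all 8 were found among the 58302 genes of the deposited table. The set was chosen by the difference in MYC between these libraries, measured in FPKM, and by position for the rest, so the values of its members are a description and no test was made on them. The set was named for the amplification of MYC, which is known from earlier work on HL60. DNA copy number was not analysed here.

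The study concerned EIF2S3, which encodes the gamma subunit of eIF2 (the factor that brings the initiator tRNA to the ribosome), and its overexpression in proliferating leukemia cells. HL60 is a human cell line long established from promyelocytic leukemia, and a Retro-X Tet-Off Advanced vector system was used to make stable cells that carry an EIF2S3 transgene. The cells labelled DOX(-) were grown without doxycycline, which leaves the transgene on, and those labelled DOX(+) were treated with doxycycline, which turns it off. Each condition has 1 RNA-seq library. Both carry the transgene and its activator, cells without them were not analysed here, and the effect of doxycycline itself and that of the transgene cannot be told apart. The sources used here did not give the dose or time of doxycycline, or whether the line is 1 clone or a pool.

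MYC encodes a basic helix-loop-helix transcription factor that binds DNA as a dimer with MAX, and proteins such as MXI1 compete with it for MAX. Its mRNA and protein are both short-lived, so its level follows transcription closely, and in HL60 MYC RNA is known to fall when the cells are induced to differentiate. PVT1 is a long noncoding RNA gene just downstream of MYC, and the pair is often gained together in tumours. TRIB1 encodes a pseudokinase that brings C/EBP alpha to the ubiquitin ligase COP1, a route to leukemia known from mouse models. NSMCE2 encodes a SUMO ligase of the SMC5/6 complex, which works in DNA repair. CASC11 and PCAT1 are long noncoding RNA genes, and POU5F1B is a retrotransposed copy of POU5F1, the gene of the stem cell factor OCT4. The cellular role of FAM84B is less well defined.

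The deposited values are FPKM, fragments per kb of gene length and per 1000000 fragments of the library. The steps between low values gave back the fragments behind them, as 16577644 in all for DOX(-) and 18521279 for DOX(+). A gene counted as tested where it had at least 1 FPKM in either library, which left 11525 genes with a median log2 ratio of -0.02. Log2 ratios are those of FPKM + 1, DOX(-) over DOX(+), while plain ratios are of FPKM with a 95% counting interval. With 1 library per condition there is no replicate check on any value, and the intervals cover counting error only. EIF2S3 itself had 132.9 FPKM in DOX(-), against 126.2 FPKM in DOX(+), a plain ratio of 1.05 (interval 1.02 to 1.08). The labels are therefore used as names of the libraries, and directions are those between the libraries so labelled. Among 9 promyelocyte markers 8 were tested, with CTSG at 689 FPKM in DOX(-) against 570 FPKM in DOX(+), but MPO, a defining gene of this stage, had only 0.274 FPKM in DOX(-) and 0.469 FPKM in DOX(+). The markers of T, B, erythroid, megakaryocytic and mature myeloid cells summed to at most 3.51 FPKM per list in either library, and those of epithelial cells were listed at 0.

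MYC (ENSG00000136997, GRCh38 chromosome 8, 127735434 to 127741434, plus strand) had 29.5 FPKM in DOX(-), against 2.06 FPKM in DOX(+). The values rest on 4617 fragments in DOX(-) and 360 fragments in DOX(+), with exact Poisson intervals of 4485 to 4752 in DOX(-) and 324 to 399 in DOX(+). The MYC level was thus far higher in the library labelled DOX(-), with a log2 ratio of 3.32 and a plain ratio of 14.3 (12.9 to 16.0). Per 1000000 fragments, MYC took 278.5 in DOX(-) and 19.4 in DOX(+). In a bulk library, more cells that hold MYC RNA and more of it per cell cannot be told apart. Of the 11525 tested genes, 3 had a log2 ratio at least as high as that of MYC, counting MYC itself, and 9 had a difference at least as large in either direction. By FPKM, MYC was gene 876 of 13139 protein-coding genes above 0 in DOX(-) and gene 7500 of 13489 in DOX(+).

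MYC RNA in the DOX(+) library was low but clearly above the counting floor of 3 fragments, so the ratio is not one against an empty library. The recovered fragments also bear on the gene length behind the values. MYC has 9 annotated transcripts, and its FPKM in both libraries is a whole number of fragments divided by 1 fixed length, 9431 bases, the summed length of its distinct exons. The same length thus served for both libraries. If a fragment was counted once per overlapping exon, the ratio could still vary with which exons were covered, and this was not tested. Since exons that overlap each other were added up, this length is above the 3001 bases that the exons of MYC cover once merged. On the merged length the MYC level was 92.8 FPKM in DOX(-) and 6.48 FPKM in DOX(+). By that measure it was gene 375 of the protein-coding genes in DOX(-) and gene 5675 in DOX(+). Values on merged lengths assume that each fragment was counted once, which was not tested. None of the other genes listed for these libraries has a GENCODE 29 exon that overlaps those of MYC, on either strand.

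**Figure D1:**
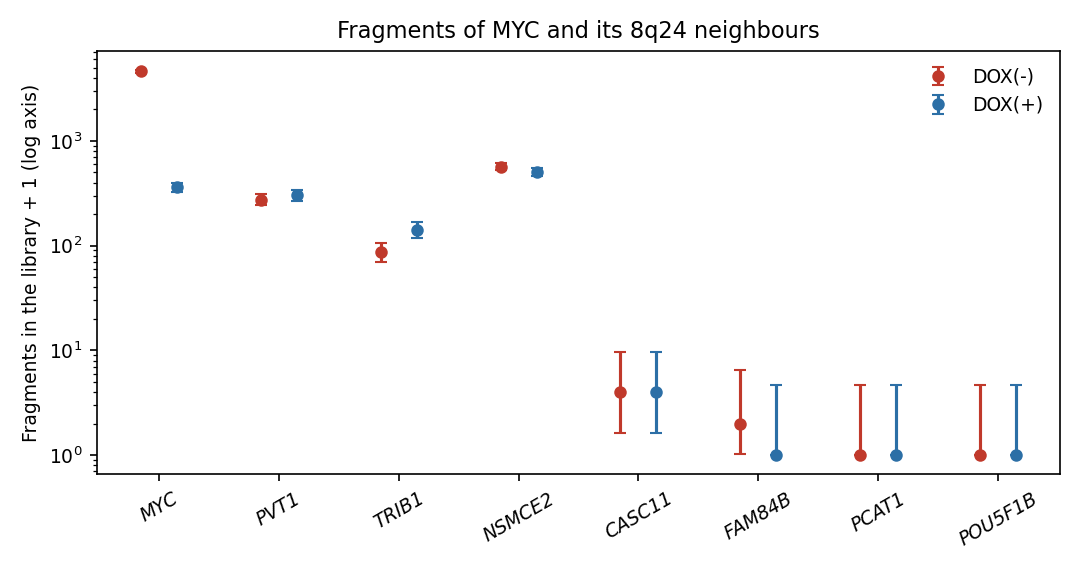
Fragments of the 8 genes in the library labelled DOX(-) (red, left of each pair) and the library labelled DOX(+) (blue), 1 library each, plotted as fragments + 1 on a log axis with exact 95% Poisson intervals. Fragments are not adjusted for the library totals. MYC lies at 4617 fragments in DOX(-) and 360 in DOX(+). PVT1, TRIB1 and NSMCE2 lie between 86 and 568, with pairs closer together than that of MYC. The 2 intervals of TRIB1 do not overlap. The other 4 genes have at most 3 fragments.

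Of the 8 genes, 6 were above 0 in at least 1 library and 4 were tested. MYC was the only one of the 4 tested genes at least 2-fold apart on the FPKM + 1 scale, with 1 higher in DOX(-) and 0 lower, against 0.833% of all tested genes that were 2-fold higher, 1.2% that were 2-fold lower and 2.03% in either direction. This count includes the contrast that chose the set and is read no further. The other 3 tested genes had log2 ratios between -0.27 and 0.27.

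PVT1 (ENSG00000249859, 127794533 to 128101253, plus strand), the nearest of the tested genes, starts 59.1 kb downstream of the MYC start. It had 1.46 FPKM in DOX(-) and 1.44 FPKM in DOX(+), from 274 fragments in DOX(-) and 302 in DOX(+). Its log2 ratio was 0.01, or -0.03 when the libraries were scaled to the same sum over nuclear genes, and its plain ratio was 1.01 (0.858 to 1.20). The PVT1 level was thus nearly the same in both libraries, and the interval of its ratio held 1. Of all tested genes, 96.1% differed more than PVT1. On merged exon lengths, MYC stood at 30.8 times the level of PVT1 in DOX(-) and at 2.18 times in DOX(+). PVT1 shares exons on its own strand with 3 small RNA genes, among them MIR1204, and each of these 3 had 1 fragment in each library.

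TRIB1 (ENSG00000173334, 125430321 to 125438405, plus strand) lies 2305 kb upstream of MYC. It had 0.789 FPKM in DOX(-) and 1.16 FPKM in DOX(+), from 86 fragments in DOX(-) and 141 in DOX(+), so its level was lower in DOX(-). Its log2 ratio was -0.27 and its plain ratio 0.681 (0.515 to 0.897). It was tested only through its value in DOX(+), the library where it was higher, so its direction among tested genes was set by the filter.

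NSMCE2 (ENSG00000156831, 125091679 to 125367120, plus strand) lies before TRIB1 and starts 2644 kb upstream of MYC. It had 5.39 FPKM in DOX(-) and 4.31 FPKM in DOX(+), from 568 fragments in DOX(-) and 508 in DOX(+), so its level was higher in DOX(-). Its log2 ratio was 0.27 and its plain ratio 1.25 (1.11 to 1.41). The ratio of NSMCE2 thus lay above 1 and that of TRIB1 below 1. No contrast is drawn from this, because the filter set the direction of TRIB1. An interval without 1 is common in these libraries: it was found for 54% of the 10699 tested genes with whole fragments, above 1 in 24.1% and below 1 in 29.9%. A difference on the log2 scale larger than that of TRIB1 was seen in 29.8% of tested genes, and one larger than that of NSMCE2 in 30.6%. The start of WASHC5, on the opposite strand, overlaps that of NSMCE2, and the sources used here do not say whether counting used strand.

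The remaining 4 genes were at or under the floor of 3 fragments, which equals 0.181 fragments per 1000000 in DOX(-) and 0.162 in DOX(+), and no fold is given for them. CASC11 (ENSG00000249375, 127686343 to 127733967, minus strand) starts only 1.47 kb upstream of the MYC start and is read in the opposite direction. It had 3 fragments in each library, 0.0387 FPKM in DOX(-) and 0.0346 FPKM in DOX(+). FAM84B (ENSG00000168672, 126552442 to 126558393) had 1 fragment in DOX(-) and 0 in DOX(+). PCAT1 (ENSG00000253438, 126847055 to 127021014) and POU5F1B (ENSG00000212993, 127414290 to 127420069) were listed at 0 in both. Differences in these genes were not detectable at this depth, and RNA below the floor cannot be seen. POU5F1, the source of the POU5F1B copy, and FAM84A, the paralog of FAM84B, were also listed at 0 in both libraries.

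The ratio of MYC to each neighbour within a library needs no scaling between libraries. On merged lengths the level of MYC was 8.10 times that of NSMCE2 in DOX(-) and 0.706 times in DOX(+), so the order of these genes differed between the libraries. MYC was at 74.0 times the level of TRIB1 in DOX(-) and at 3.52 times in DOX(+).

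The surrounding chromosome was then compared with MYC. Within 2 Mb of the middle of MYC the table lists 53 genes, of which 15 were above 0 and 5 were tested. Apart from MYC and PVT1 these were AC020688.1, LINC00977 and CCDC26. AC020688.1, a pseudogene between PCAT1 and POU5F1B, had 8.36 FPKM in DOX(-), against 11.8 FPKM in DOX(+), a log2 ratio of -0.45. LINC00977 had 1.09 FPKM in DOX(-) and 0.557 FPKM in DOX(+), and CCDC26, a noncoding gene also known in leukemia, had 1.57 FPKM in DOX(-) and 1.22 FPKM in DOX(+). Their log2 ratios were 0.42 and 0.21. LINC00977 was tested only through its value in DOX(-), the library where it was higher, so its direction was set by the filter and no median is given for this window.

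Within 5 Mb the table lists 156 genes, of which 26 were tested. On the FPKM + 1 scale, MYC was the only one at least 1.5-fold apart in either direction, against 7.17% of all tested genes. The other 25 had log2 ratios between -0.45 and 0.49, with 9 above 0 and 16 below. Their median was -0.06, beside -0.02 for all tested genes. The share of all tested genes on each side of 0 is not given here, so no lean is read from these counts. Of the 25, LINC00977 and TRIB1 were tested only through the library where they were higher, so their directions were set by the filter. Without the added 1, the plain ratio of LINC00977 was 1.96, which is past 1.5-fold. The highest of the 25 by log2 ratio, ZHX1-C8orf76, is a readthrough gene that shares its exons with ZHX1 and C8orf76. Several well expressed genes lie in this stretch. SQLE, an enzyme of cholesterol synthesis near NSMCE2, had 64.1 FPKM in DOX(-) and 64.7 FPKM in DOX(+), and WASHC5 had 28.5 FPKM in DOX(-) and 29.8 FPKM in DOX(+). ATAD2, a bromodomain protein known as a cofactor of MYC, had 25.3 FPKM in DOX(-) and 31.1 FPKM in DOX(+). Of the 21 of these 25 genes with whole fragments, the interval of the plain ratio lay above 1 in 3, held 1 in 9 and lay below 1 in 9. Among all tested genes with whole fragments it lay above 1 in 24.1% and below 1 in 29.9%. The 12 of 21 off 1 in either direction are near the 54% of all such genes and are not a result about this stretch.

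**Figure D2:**
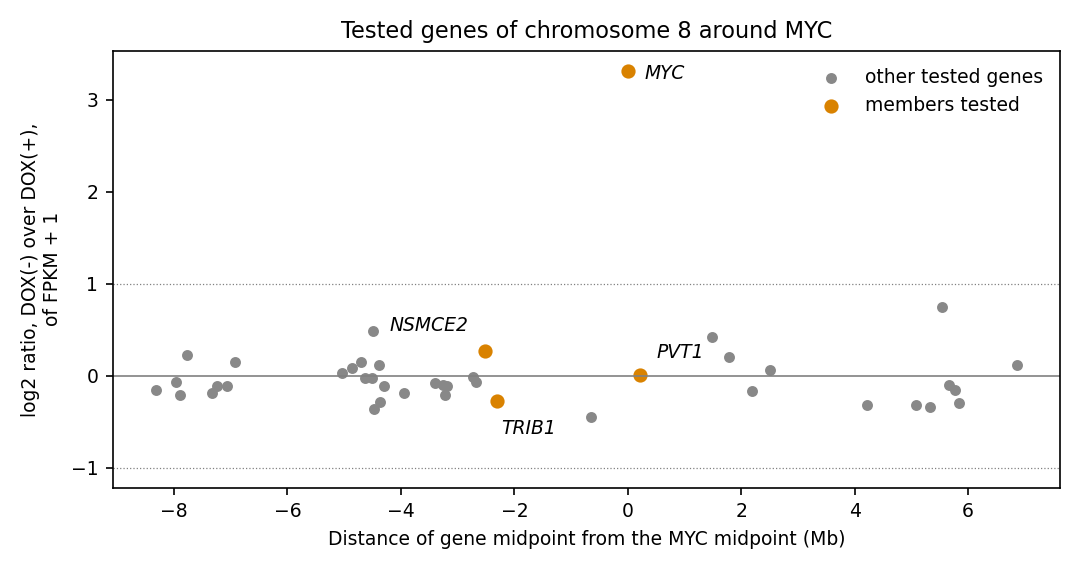
Log2 ratio of FPKM + 1, DOX(-) over DOX(+), of tested genes on chromosome 8 within 10 Mb of MYC, against the distance of their middle from that of MYC in Mb. MYC stands alone at 3.32, while PVT1, TRIB1 and NSMCE2 (orange) and all other genes shown (grey) lie within the dotted lines that mark 2-fold.

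Longer distances were taken in bins. In bins of 10 Mb of distance from MYC, the median log2 ratio was -0.09 in the nearest bin, without MYC (41 genes, 0 of them 2-fold apart), and between -0.20 and 0.01 in the bins beyond. Beyond the nearest bin 4 genes were 2-fold apart, 1 in each of 4 bins, against 2.03% of all tested genes. Chromosome 8 as a whole had a median of -0.07 over 384 tested genes without MYC. The medians of the nuclear chromosomes ran from -0.09 to 0.05.

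**Figure D3:**
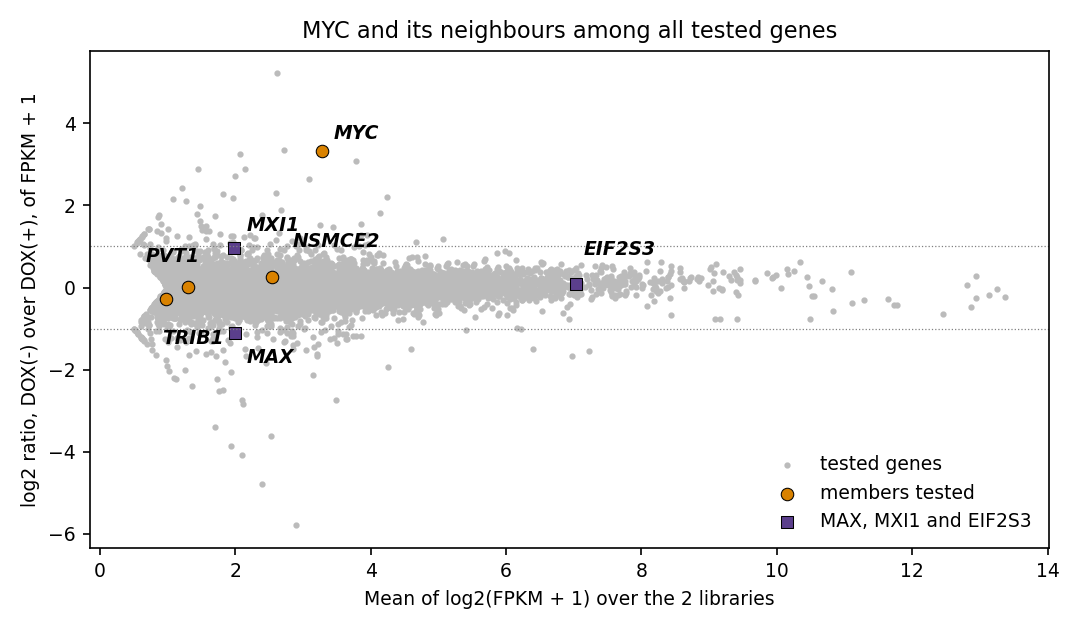
Log2 ratio of FPKM + 1, DOX(-) over DOX(+), against the mean of log2(FPKM + 1) over the 2 libraries for all 11525 tested genes (grey), with the 4 tested members in orange and MAX, MXI1 and EIF2S3 as purple squares. MYC is near the top edge of the cloud at 3.32, and PVT1, TRIB1, NSMCE2 and EIF2S3 lie inside it.

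Genes whose difference was most like that of MYC were sought among 5953 genes of at least 5 FPKM in either library, by the distance between log2 ratios over these 2 libraries. The 5 nearest were AC004922.1 (974 fragments in DOX(-) and 58 in DOX(+)), SNORA6, AC068580.4, SNORD14D and FP565260.2. All 5 share exons on the same strand with other listed genes, and MYC does not. Among them, AC004922.1 does so with ARPC1A and ARPC1B, and SNORA6 with its host RPSA. SNORA6 rested on 30 fragments in DOX(-) and 1 in DOX(+), far fewer than MYC.

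The partners of MYC were taken next. MAX, the obligate partner of MYC, had 1.69 FPKM in DOX(-), against 4.85 FPKM in DOX(+), a plain ratio of 0.349 (0.312 to 0.389), while the antagonist MXI1 had 4.49 FPKM in DOX(-), against 1.81 FPKM in DOX(+), a plain ratio of 2.48 (2.16 to 2.86). On merged lengths MYC was at 16.3 times the level of MAX in DOX(-) and at 0.397 times in DOX(+). Of 12 genes of the MAX network 8 were tested, with 1 at least 1.5-fold higher (MXI1) and 1 at least 1.5-fold lower (MAX), against 3.11% and 4.06% of all tested genes, and a median log2 ratio of -0.03. Among the 8, MXD3 (1.08 FPKM in DOX(-) and 0.931 FPKM in DOX(+)) was tested only through DOX(-), where it was higher. Its direction was thus set by the filter. The paralog MYCN was listed at 0 in both libraries, and MYCL had 21 fragments in DOX(-) and 17 in DOX(+).

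Known target genes of MYC lay on both sides of 0. Of 47 genes that MYC is known to induce, 46 were tested, 23 with a log2 ratio above 0 and 23 below, and their median was -0.01, beside -0.02 for all tested genes. On the FPKM + 1 scale, 1 gene was at least 1.5-fold higher, PPAT, the first enzyme of purine synthesis (6.74 FPKM in DOX(-) and 3.88 FPKM in DOX(+)). At least 1.5-fold lower were AMD1, which acts in polyamine synthesis (9.04 FPKM in DOX(-) and 16.4 FPKM in DOX(+)), and RRS1, a ribosome assembly factor (50.4 FPKM in DOX(-) and 80.3 FPKM in DOX(+)). These counts are near the 3.11% higher and 4.06% lower of all tested genes and are not a result about the list. APEX1, a DNA repair enzyme, had 13.4 FPKM in DOX(-) and 8.79 FPKM in DOX(+).

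Of 18 genes that MYC is known to repress, 12 were tested, with 3 at least 1.5-fold higher, 1 at least 1.5-fold lower and a median of 0.07, against 3.11% higher and 4.06% lower among all tested genes. The higher ones were DDIT3, a stress factor (4.63 FPKM in DOX(-) and 1.73 FPKM in DOX(+)), NDRG1 (19.9 FPKM in DOX(-) and 11.4 FPKM in DOX(+)) and TXNIP (7.48 FPKM in DOX(-) and 4.56 FPKM in DOX(+)). NDRG1 is itself on chromosome 8 and is the highest of the other genes within 10 Mb of MYC in the plot of log2 ratio by distance. TIMP2, a metalloproteinase inhibitor, was lower (6.73 FPKM in DOX(-) and 15.8 FPKM in DOX(+)), and it shares exons on its strand with CEP295NL.

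Regulators of MYC itself were taken as 2 lists. Of 28 genes that control its transcription or mRNA, 25 were tested, with a median of -0.01. On the FPKM + 1 scale 0 of them passed 1.5-fold in either direction, against 7.17% of all tested genes. Without the added 1, the plain ratio of RELA was 1.75 (1.57 to 1.95). The widest apart were RELA, a subunit of NF-kappaB (2.90 FPKM in DOX(-) and 1.66 FPKM in DOX(+), log2 ratio 0.55), and IGF2BP2, which binds and stabilizes MYC mRNA (6.59 FPKM in DOX(-) and 4.88 FPKM in DOX(+), log2 ratio 0.37). CTNNB1, the beta-catenin gene, had 12.01 FPKM in DOX(-) and 15.8 FPKM in DOX(+). All 19 genes of MYC protein turnover were tested, and 0 passed 1.5-fold on the FPKM + 1 scale, against the same 7.17%. Their median was -0.08, beside -0.02 for all tested genes. Of the 19, 5 lay above 0 and 14 below, and the share of all tested genes on each side is not given here. CIP2A, an inhibitor of the phosphatase that marks MYC for decay, had 7.22 FPKM in DOX(-) and 9.77 FPKM in DOX(+). The ubiquitin ligase HUWE1 had 52.2 FPKM in DOX(-) and 42.0 FPKM in DOX(+). FBXO28 and USP36, also among the widest apart of this list, each had a log2 ratio of -0.38.

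**Figure D4:**
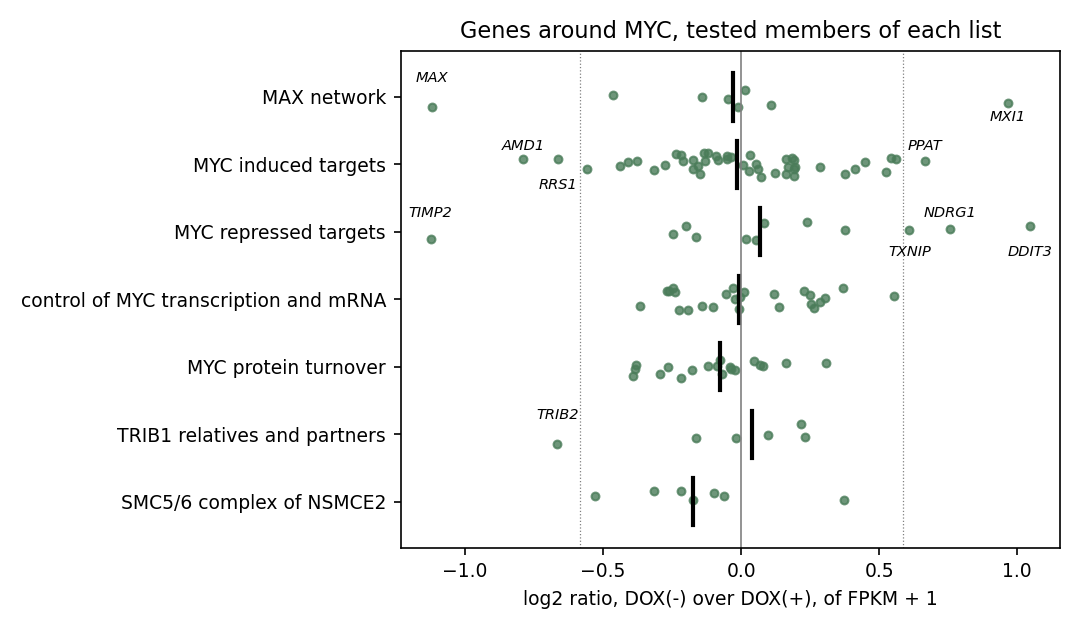
Log2 ratio of FPKM + 1, DOX(-) over DOX(+), of the tested genes of 7 lists around MYC, TRIB1 and NSMCE2, 1 point per gene with a black bar at the list's median and dotted lines at 1.5-fold. List medians lie between -0.17 and 0.07, and the genes past 1.5-fold are named.

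The relatives and partners of TRIB1 were 7 genes, of which 6 were tested, with 0 at least 1.5-fold higher and 1 at least 1.5-fold lower, against 3.11% and 4.06% of all tested genes. The lower one was its paralog TRIB2 (2.35 FPKM in DOX(-) and 4.31 FPKM in DOX(+), from 218 fragments in DOX(-) and 447 in DOX(+)). The paralog TRIB3 had 16.2 FPKM in DOX(-) and 13.8 FPKM in DOX(+). COP1, the ligase, had 9.70 FPKM in DOX(-) and 9.82 FPKM in DOX(+). CEBPA, which encodes the TRIB1 substrate C/EBP alpha and is also on the list of genes repressed by MYC, had 151.4 FPKM in DOX(-) and 169.6 FPKM in DOX(+).

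Of 8 other genes of the SMC5/6 complex, in which NSMCE2 acts, 7 were tested. On the FPKM + 1 scale 0 of them passed 1.5-fold in either direction, against 7.17% of all tested genes. The median log2 ratio of the 7 was -0.17, beside -0.02 for all tested genes, while the log2 ratio of NSMCE2 was 0.27. Of the 7, 1 lay above 0 and 6 below, and the share of all tested genes on each side is not given here. SMC5, a core subunit, had 6.39 FPKM in DOX(-) and 9.68 FPKM in DOX(+), which is 1.51-fold lower without the added 1. SMC6, its partner, had 4.34 FPKM in DOX(-) and 5.64 FPKM in DOX(+). The gene above 0 was NSMCE1, another ligase subunit, at 6.35 FPKM in DOX(-) against 4.67 FPKM in DOX(+).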

How the data were processed

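The authors deposited 1 table that gives an FPKM value for every gene in both libraries (per the file headers). Tools named in the submitters' processing notes are edgeR, StringTie 1.3.4b, HISAT2 2.1.0 and CASAVA 1.8, beside GRCh38 and hg38 as builds. What each tool did, and which annotation release was used, is not given in the sources used here.

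Deposited FPKM equalled fragments per summed length of distinct exons in GENCODE 29 and per library total: 94.4% of 20362 genes in DOX(-) and 94.3% of 21229 in DOX(+) came out whole within 0.05 fragment. The library totals are the divisors so found. If a fragment was counted in more than 1 gene or exon, the intervals are too narrow. Levels on merged lengths can then be too high, and the ranks and multiples taken from them can be off. The loci of PCAT1 and POU5F1B differ from that release.

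Ratios use FPKM + 1, with 1 FPKM in either library as the minimum, 2-fold for genes and 1.5-fold for lists. Intervals are exact conditional 95% intervals (Clopper-Pearson) on recovered fragments; transcript lengths, which the design had foreseen for them, are an alternative. Named genes are the members, tested genes within 2 Mb, the 5 genes nearest to MYC and preset symbols. List genes were named from the 4 of at least 2 FPKM with the largest difference in each list, and not all 4 are printed for every list. MPO, CTSG, SQLE, WASHC5, ATAD2, ZHX1-C8orf76, MYCN, MYCL, POU5F1, FAM84A, ELANE, AZU1, CEBPE, HBA1, HBB, CD79A, MS4A1, PRNCR1, CASC19 and small RNAs were named after their values were seen. Members and lists were chosen with earlier results of these data known, and list roles are textbook knowledge. No sequences are printed. Each statistic was tested on simulated data before use, in Python 3.11.15, scipy 1.17.1, pandas 2.3.3 and numpy 2.4.6.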

Additional observations from a re-analysis of the deposited data

How the results depend on the processing

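Alternatives covered the pseudocount, the filter, the fold threshold, the window, 3 scalings between libraries, protein-coding genes only and the transcript length behind the interval. Fragments per library total without length, and FPKM per merged exon length, were added after seeing the data. The MYC log2 ratio was 3.78 with a pseudocount of 0.1 FPKM, 2.29 with 5 FPKM, 3.84 as fragments per library total with 1 fragment added and 3.65 on the merged length, and 3.25 to 3.32 under the scalings. Its counting interval was 8.27 to 27.8 with the shortest transcript and 11.6 to 18.02 with the longest. The TRIB1 log2 ratio was -0.50 with a pseudocount of 0.1 FPKM. In the MAX network the counts past 1.5-fold were 0 higher and 0 lower both with a pseudocount of 5 FPKM and at a minimum of 5 FPKM, which MAX and MXI1 do not reach. Induced targets past 1.5-fold higher were 3 with a pseudocount of 0.1 FPKM and 0 with 5 FPKM. Repressed targets had a median of -0.16 at a minimum of 5 FPKM, and the TRIB1 list had a median of -0.03 when scaled over nuclear genes. For the lower calls, the TRIB1 list had 0 with a pseudocount of 5 FPKM or at a minimum of 5 FPKM, and the SMC5/6 list had 1 with a pseudocount of 0.1 FPKM or scaled over nuclear genes. Higher calls among repressed targets were 1 with a pseudocount of 5 FPKM, and among genes that control MYC 1 with 0.1 FPKM. No paired analysis was possible because each condition has 1 library, and for the same reason no library could be left out. A gene with 3 fragments or fewer in both libraries gives no direction at this depth.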

Other observations

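Small RNA and noncoding genes inside or near PVT1 and MYC were sparse in both libraries. MIR1207 had 0 fragments in DOX(-) and 1 in DOX(+), RNU1-106P had 1 in each, PRNCR1 had 7 in DOX(-) and 13 in DOX(+), and CASC19 had 0 in DOX(-) and 2 in DOX(+). These counts allow no statement on a difference.

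Haemoglobin gene HBA1 had 1.33 FPKM in DOX(-) and 3.36 FPKM in DOX(+), and the B cell gene CD79A had 1.66 FPKM in DOX(-) and 0.709 FPKM in DOX(+), while HBB and MS4A1 were listed at 0. The promyelocyte genes ELANE (396 FPKM in DOX(-) and 299 FPKM in DOX(+)) and AZU1 (76.0 FPKM in DOX(-) and 52.3 FPKM in DOX(+)) were higher in DOX(-), and CEBPE (8.93 FPKM in DOX(-) and 12.6 FPKM in DOX(+)) was lower. Of the 8 tested promyelocyte genes, 5 had a log2 ratio above 0 and 3 below. On the FPKM + 1 scale 0 of the 8 passed 1.5-fold, against 7.17% of all tested genes. No shift of the promyelocyte list is read from the genes named. The part of these marker genes in the difference of MYC was not tested.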
